A study of Mus musculus with 52 samples.

Results

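The glutathione S-transferases examined here were 10 genes of mouse liver, Gsta2, Gsta3 and Gsta4 of the alpha class, Gstm1, Gstm3, Gstm4 and Gstm6 of the mu class, Gstp1 of the pi class, and Gstt1 and Gstt2 of the theta class. They were taken as every probe set of the array whose annotation gives a single one of these symbols, which gave 15 probe sets of 22626, and 10 genes of 12393 with a single symbol. All 15 passed the filter on low signals, as did 18349 probe sets in all. Gstm1 had 4 probe sets, Gstm3 and Gsta3 had 2 each and the other 7 genes had 1 each. Where a gene is given by 1 value below, it is the value of its brightest probe set.

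Male B6C3F1 mice, 9 weeks old, received a single intraperitoneal dose of 1 of 8 chemicals. Of the genotoxic aromatic compounds, o-aminoazotoluene (AAT) was given at 300 mg/kg, dibenzo[a,l]pyrene (DBP) at 6 mg/kg, and 7,12-dimethylbenzanthracene (DMBA) at 20 mg/kg. Of the genotoxic alkylating agents, ethylnitrosourea (ENU) was given at 150 mg/kg, dimethylnitrosamine (DMN) at 5 mg/kg and dipropylnitrosamine (DPN) at 250 mg/kg. Of the non-genotoxic chemicals, ethanol (EtOH) was given at 1000 mg/kg and phenobarbital (PB) at 30 mg/kg. AAT, DMBA and DBP shared an olive oil control, ENU, DMN and DPN each had a saline control of their own, and EtOH and PB shared another saline control. Livers were taken at 4 h, 20 h, 14 d and 28 d, and RNA from 5 mice was pooled for each array, so that each chemical and each control had 1 array per time and 52 arrays were made. There were therefore no replicates of a chemical at a time, animal-to-animal variation lay inside the pools, and the array carries RNA of the whole liver, in which a lower share of a cell type and less RNA per cell cannot be told apart.

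Glutathione S-transferases join the tripeptide glutathione to electrophilic compounds, which makes them more water soluble and ready for export from the cell. The cytosolic enzymes form dimers and are grouped into classes by sequence. Many of the alpha and mu class genes of rodent liver are known to be inducible by electrophiles through the transcription factor NRF2, and some by ligands of the dioxin receptor or of the nuclear receptors CAR and PXR. Gstp1 is the pi class enzyme abundant in mouse liver, and the theta class enzymes act on small halogenated compounds. The mu class genes lie side by side on mouse chromosome 3, in the order Gstm5, Gstm7, Gstm6, Gstm3, Gstm2, Gstm1 and Gstm4, and are close paralogs, so a probe set marked _s_at or _x_at may read more than 1 of them.

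The sequence around the transcription start is shown for the 3 genes Gstm3, Gstm4 and Gsta2, which were high together in AAT livers at 20 h, and for Gsta3, an alpha class gene whose 2 probe sets had log2 ratios of 0.24 and 0.79 in the same array. Each RefSeq window (GRCm38.p6) runs from 250 bases before the start to 50 bases after it, 5′ to 3′ on the strand of the gene. Capitals mark TGACNNNGC, the core of the antioxidant response element that NRF2 binds, and GCGTG, the core of the dioxin response element, each searched on both strands. No match of one motif overlapped a match of the other in these windows.
Gstm3 (chr3:107969125-107969424, minus strand): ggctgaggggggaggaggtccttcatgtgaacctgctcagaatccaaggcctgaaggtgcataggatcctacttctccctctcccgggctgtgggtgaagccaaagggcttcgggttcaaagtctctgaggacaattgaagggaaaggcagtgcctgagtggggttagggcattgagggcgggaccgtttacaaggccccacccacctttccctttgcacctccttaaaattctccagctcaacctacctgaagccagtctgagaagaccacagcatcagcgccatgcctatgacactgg
Gstm4 (chr3:108044810-108045109, minus strand): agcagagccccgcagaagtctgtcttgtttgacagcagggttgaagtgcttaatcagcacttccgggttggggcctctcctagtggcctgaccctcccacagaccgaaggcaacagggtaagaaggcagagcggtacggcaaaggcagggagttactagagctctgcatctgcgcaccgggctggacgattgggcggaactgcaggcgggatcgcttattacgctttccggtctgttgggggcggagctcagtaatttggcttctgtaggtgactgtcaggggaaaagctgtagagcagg
Gsta2 (chr9:78347096-78347395, minus strand): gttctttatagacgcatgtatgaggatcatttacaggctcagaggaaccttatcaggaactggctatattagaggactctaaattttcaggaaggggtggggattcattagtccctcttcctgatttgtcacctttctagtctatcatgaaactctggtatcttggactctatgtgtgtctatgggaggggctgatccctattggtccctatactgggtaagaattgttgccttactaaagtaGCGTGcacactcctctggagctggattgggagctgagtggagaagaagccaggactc
Gsta3 (chr1:21240335-21240634, plus strand): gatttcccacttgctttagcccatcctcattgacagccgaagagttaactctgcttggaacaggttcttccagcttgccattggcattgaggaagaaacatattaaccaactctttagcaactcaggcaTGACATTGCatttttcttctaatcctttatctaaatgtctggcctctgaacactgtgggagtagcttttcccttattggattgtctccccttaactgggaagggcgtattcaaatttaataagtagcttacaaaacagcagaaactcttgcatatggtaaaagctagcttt
The Gsta2 window held 1 GCGTG, the Gsta3 window held 1 TGACNNNGC, and neither motif was found in these letters of Gstm3 and Gstm4. Of all 32851 windows of this length, 12.4% held TGACNNNGC and 32.4% held GCGTG. Windows were listed for 8 of the 10 genes. Beyond those printed, GCGTG was in both listed Gstm1 windows and in that of Gstp1, and neither motif was in those of Gstm6 and Gstt1 or in the second of Gstm4.

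**Figure D1:**
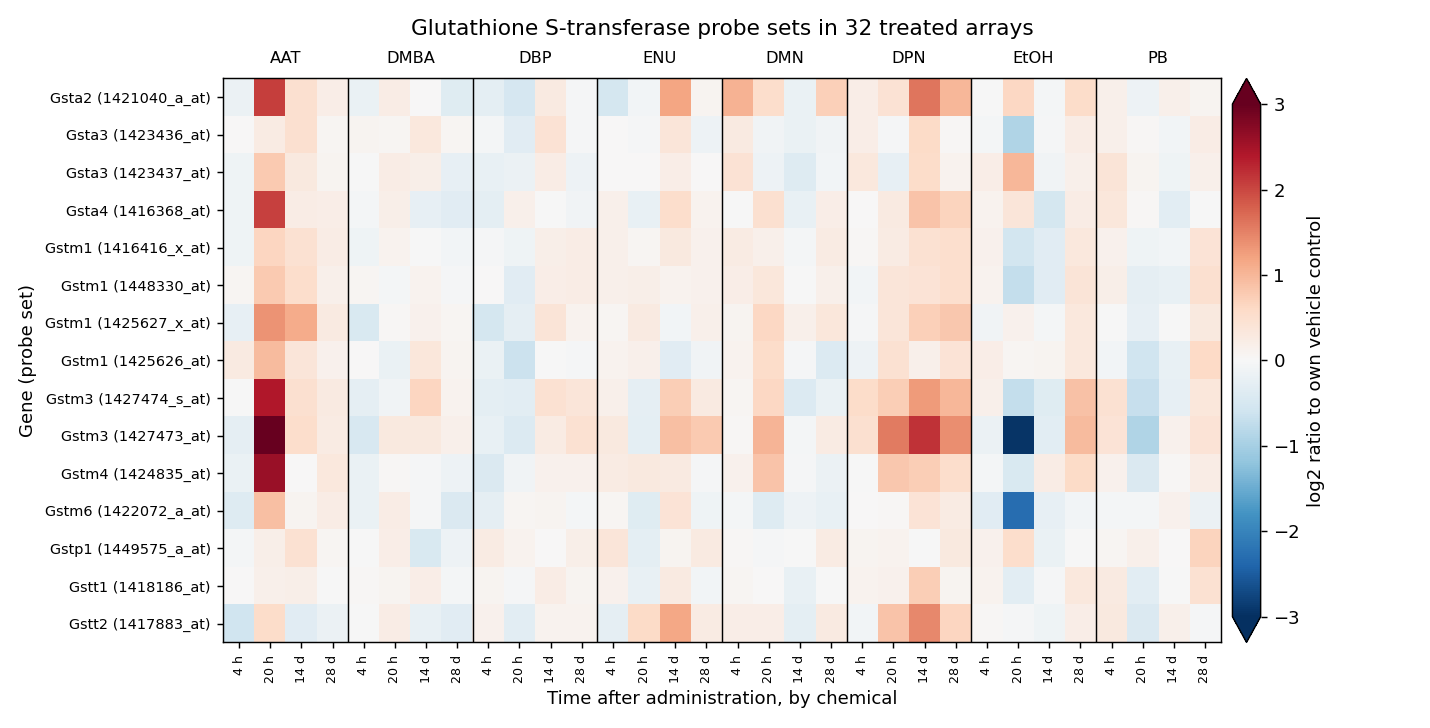
Log2 ratio of each treated array to its own vehicle control of the same time, for the 15 probe sets (rows, gene and probe set) and 32 treated arrays (columns, 4 times within each of 8 chemicals). Red is higher and blue lower in the treated array, and the colour scale ends at 3 in both directions. AAT at 20 h is the column with the highest ratio of Gstm3, Gstm4, Gsta2 and Gsta4.

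In AAT livers the family was near its control at 4 h and above it at 20 h. All 10 genes were above the olive oil control at 20 h, with a median log2 ratio of 0.77 and a range of 0.15 to 2.58. Except for Gstm3 and Gstm6, that olive oil array was the lowest of the 5 controls at 20 h. The AAT array was above all 5 only for Gsta2, Gsta4, Gstm1, Gstm3, Gstm4 and Gstt2. Gstt1 was at 10.62 in AAT and at 10.89 in the lowest saline control. At 4 h, 2 of the 10 were above the control, and the median was -0.13. Gstm4, Gstm3, Gsta2 and Gsta4 were at least 2-fold higher at 20 h, 4 of 10 genes, while 2.1% of all 18349 probe sets were 2-fold higher in the same array. The medians at 14 d and 28 d were 0.33 and 0.20, with no gene at 2-fold.

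Gstm4 had a log2 signal of 11.60 in the AAT array at 20 h and 9.02 in the olive oil array, a 5.98-fold difference. In the saline controls of that time it lay between 9.14 and 9.74. The AAT array was thus above all 5 controls, and above the other 7 treated arrays, the highest of which was DMN at 10.31. At 4 h, 14 d and 28 d, Gstm4 was at 9.32, 9.28 and 9.56 in AAT livers, against 9.52, 9.26 and 9.25 in olive oil livers.

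Gstm3 had a log2 signal of 12.63 in AAT and 10.23 in olive oil at 20 h by the probe set 1427474_s_at, or 5.25-fold. Its saline controls at 20 h ranged between 9.92 and 11.44, so the AAT array lay above them all but the controls themselves were far apart. The second probe set, 1427473_at, gave 11.75 in AAT and 7.61 in olive oil, or 17.6-fold. The 2 probe sets thus had the same direction and different ratios. At 4 h the olive oil control of Gstm3 was itself the highest control (11.15 by 1427474_s_at, against at most 10.22 in the saline controls), and AAT was at 11.14.

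Gsta2, an alpha class enzyme, had a log2 signal of 10.95 in AAT and 8.88 in olive oil at 20 h, or 4.20-fold. The olive oil array at 20 h was the lowest of all 20 controls for this gene, and the saline controls of the same time reached 10.28. That value was again of the EtOH and PB set, and the next was 9.82. Gsta4, whose enzyme is known for conjugating products of lipid peroxidation, was at 10.38 in AAT and 8.34 in olive oil, or 4.13-fold. Again this olive oil array was the lowest of all 20 controls, and the saline controls at 20 h lay between 9.18 and 9.34. In both genes the AAT array was above every control of that time, and its distance to the saline controls was smaller than to olive oil.

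**Figure D2:**
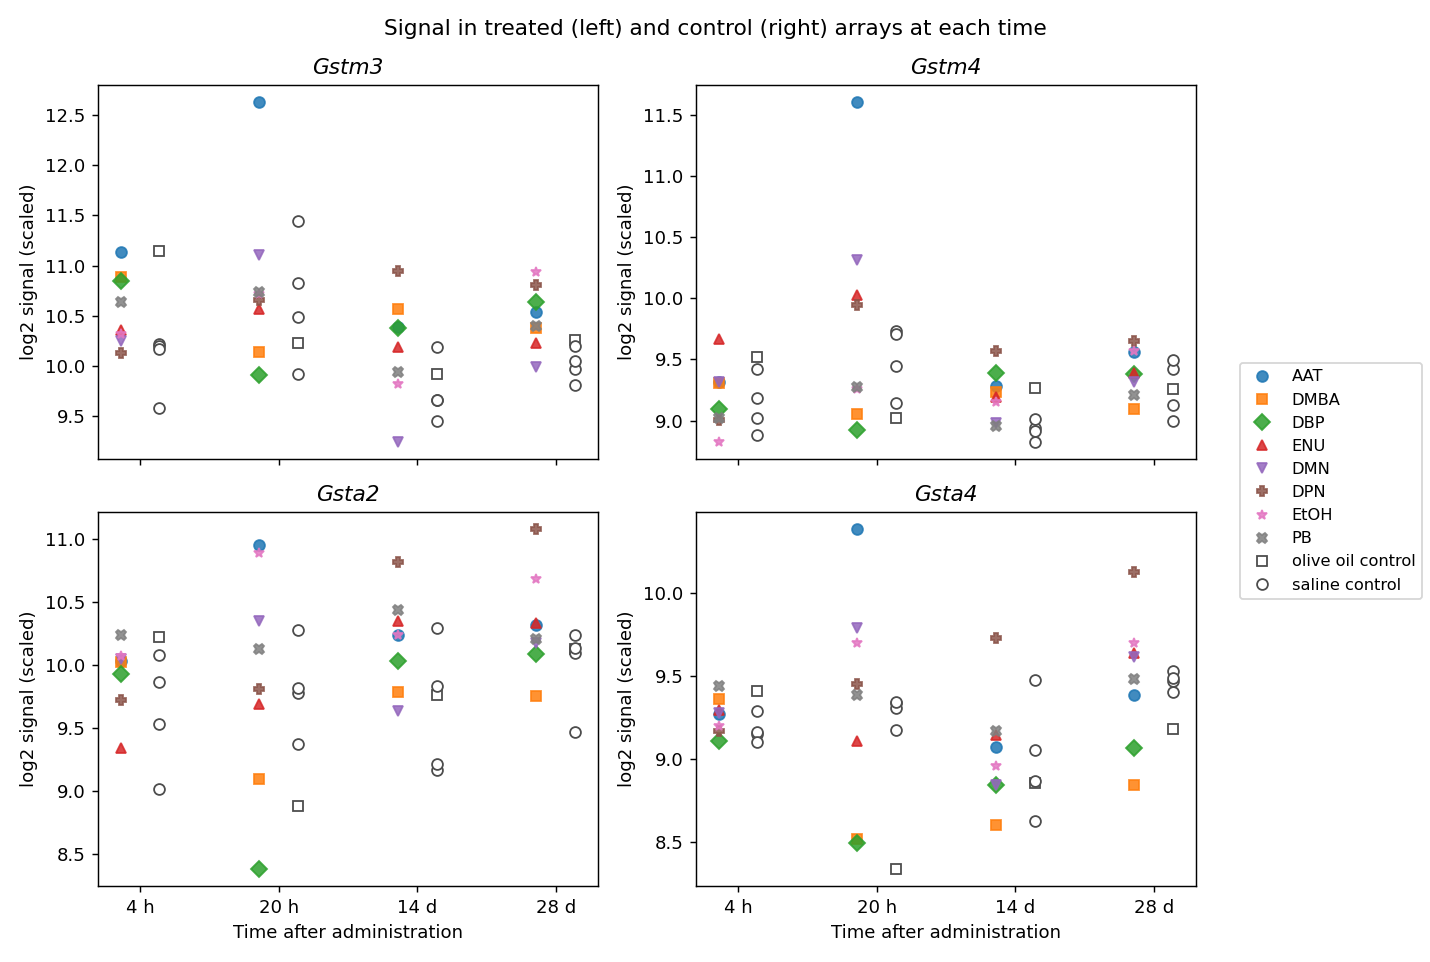
Scaled log2 signal of 4 genes at each time, with the 8 treated arrays on the left (filled, by chemical) and the 5 controls on the right (open squares for olive oil, open circles for saline). At 20 h the AAT point is above all 5 controls in each panel, and the olive oil control of Gsta2 and Gsta4 at 20 h lies below the saline controls.

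The other genes had smaller ratios in that array. Gstm6 was at 9.77 in AAT and 8.86 in olive oil at 20 h (log2 ratio 0.91), and its saline controls reached 9.86. That value was of the EtOH and PB set, and the next was 9.50. The brightest Gstm1 probe set gave a log2 ratio of 0.64, and its other 3 gave 0.79, 1.34 and 0.95, of which 1425627_x_at was also high at 14 d (1.12). Gstt2 had a ratio of 0.54, Gsta3 of 0.24, Gstp1 of 0.17 and Gstt1 of 0.15. The second Gsta3 probe set gave 0.79. The largest difference between any pair of the 4 saline controls of the same time serves as a yardstick of spread. At 20 h, 6 of the 10 AAT ratios exceeded it upwards (Gsta2, Gsta4, Gstm1, Gstm3, Gstm4 and Gstt2), and 8 did so when the saline control of the EtOH and PB set was left out of the pairs, an option chosen after seeing the data. Of all probe sets 13.3% and 19.2% did so in that array. At 4 h none of the 10 genes did, beside 8.55% of all probe sets. This yardstick holds no olive oil array, although the AAT ratios are taken to one. For Gsta4 at 20 h it was 0.17, while olive oil was at 8.34 and the saline controls lay between 9.18 and 9.34.

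**Figure D3:**
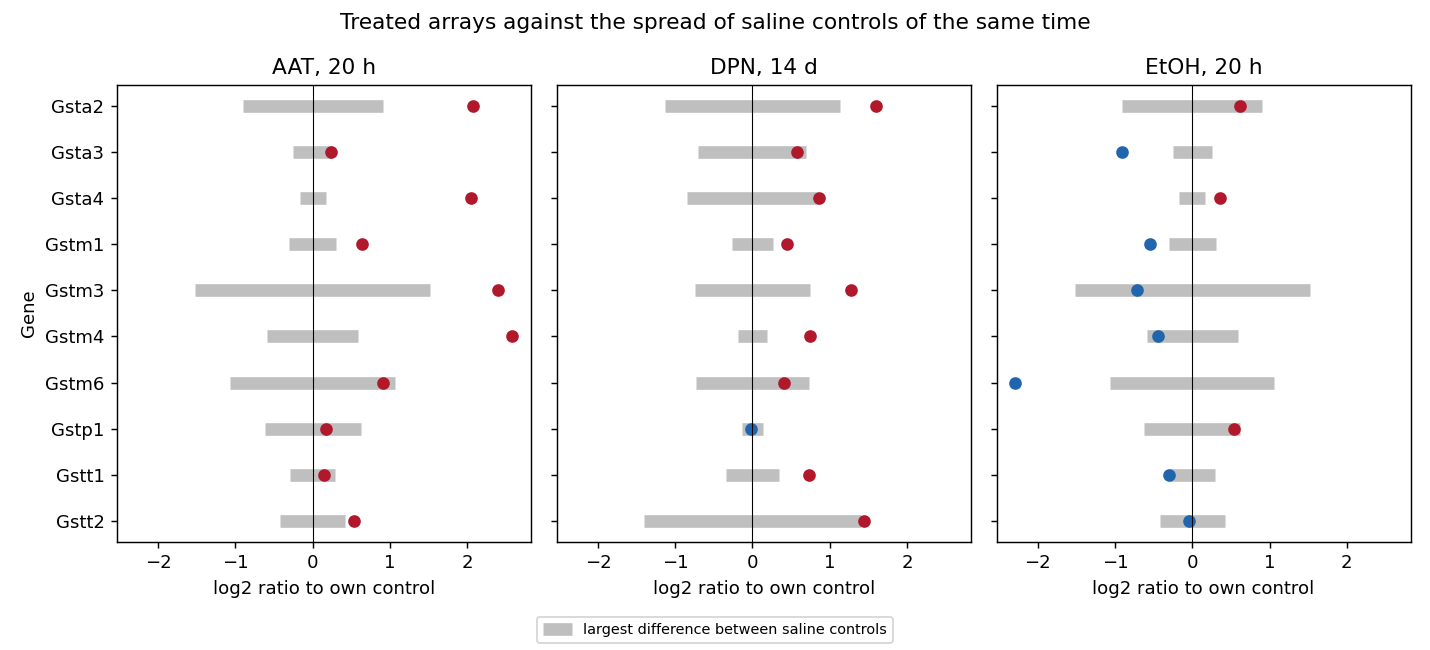
Log2 ratio to own control (points, red above 0 and blue below) of the 10 genes in AAT at 20 h, DPN at 14 d and EtOH at 20 h. Grey bars span the largest difference between any 2 saline controls of that time in both directions. The AAT points of Gstm4 (2.58) and Gsta4 (2.05) lie far beyond theirs, but the bars hold no olive oil array, the control of AAT.

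The test took 4 h and 20 h of a chemical together as its first day, and 14 d and 28 d as late, in limma fits across all 18349 probe sets with Benjamini-Hochberg adjustment, with an adjusted p of 0.05 as the threshold. For AAT on the first day Gstm3 was higher by 1.19 ± 0.40 (log2, SE), Gstm4 by 1.19 ± 0.39, Gsta4 by 0.96 ± 0.32 and Gsta2 by 0.94 ± 0.39, and limma gave adjusted p of 0.518, 0.504, 0.504 and 0.744. None of the 10 genes passed, beside 0.049% of all probe sets. The difference of AAT from the mean of DMBA and DBP, in which the shared olive oil control cancels, was 1.44 ± 0.34 for Gstm3, 1.36 ± 0.34 for Gstm4, 1.14 ± 0.34 for Gsta2 and 0.96 ± 0.27 for Gsta4. The limma adjusted p were 0.0867, 0.105, 0.201 and 0.18, so again 0 of 10 passed, beside 0.283% of all probe sets.

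With the 4 h arrays left out, the same coefficient is the 20 h array alone. Every 20 h ratio is then fitted exactly, so no 20 h array, treated or control, enters the error. The error comes from the late arrays only, on the assumption that the 20 h arrays vary as they do. It holds no spread of the olive oil control at 20 h. The same holds for every chemical in fits without the 4 h arrays. In this fit Gstm4 (adjusted p = 3.12e-05), Gsta4 (0.00189), Gstm3 (0.00713) and Gsta2 (0.0317) passed for AAT by limma, 4 of 10 genes beside 0.665% of all probe sets. The same 4 genes passed for AAT minus the mean of DMBA and DBP, with differences of 2.61 ± 0.16, 1.88 ± 0.20, 2.60 ± 0.29 and 2.22 ± 0.33, beside 1.28% of all probe sets. With the 20 h arrays left out, the AAT value of each of the 4 genes was below 0, and the difference from DMBA and DBP lay between 0.04 and 0.27. The first-day result thus rested on the single AAT array at 20 h.

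In the same AAT array at 20 h the hepatocyte markers were lower than control in 9 of 10 genes, with a median log2 ratio of -0.13, and their summed signal was 68299, against 77498 to 118637 in the 20 controls. The Kupffer cell, endothelial and stellate lists had medians of -0.06, 0.13 and 0.03. Their part in the result was not tested.

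Of the genes that commonly report exposure to such compounds, some were high earlier than the transferases and some with them. Cyp1a1, the classic target of the dioxin receptor, had log2 ratios in AAT livers of 4.40 at 4 h and 5.59 at 20 h, and Cyp2b10, a target of CAR, of 3.58 and 5.80. Both were thus high at 4 h, when Gstm3 and Gstm4 were at -0.01 and -0.20. Nqo1, a quinone reductase and NRF2 target, had ratios of 0.27 at 4 h and 2.56 at 20 h, Srxn1, which repairs oxidised peroxiredoxins, of 0.78 and 2.80, and Gclc, the catalytic subunit of the first enzyme of glutathione synthesis, of 0.61 and 1.44. Hmox1, the haem-degrading enzyme, ran the other way, with 2.43 at 4 h and 0.12 at 20 h. On the first day Cyp1a1 was higher by 5.00 ± 0.28 (limma adjusted p = 6.08e-10). For AAT minus DMBA and DBP, Srxn1 and the carbonyl reductase Cbr3 passed, at 1.96 ± 0.33 and 1.97 ± 0.42 (adjusted p of 0.00952 and 0.0483 by limma). Thus 2 of 10 NRF2 target genes were called, both higher, beside 0.283% of all probe sets.

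**Figure D4:**
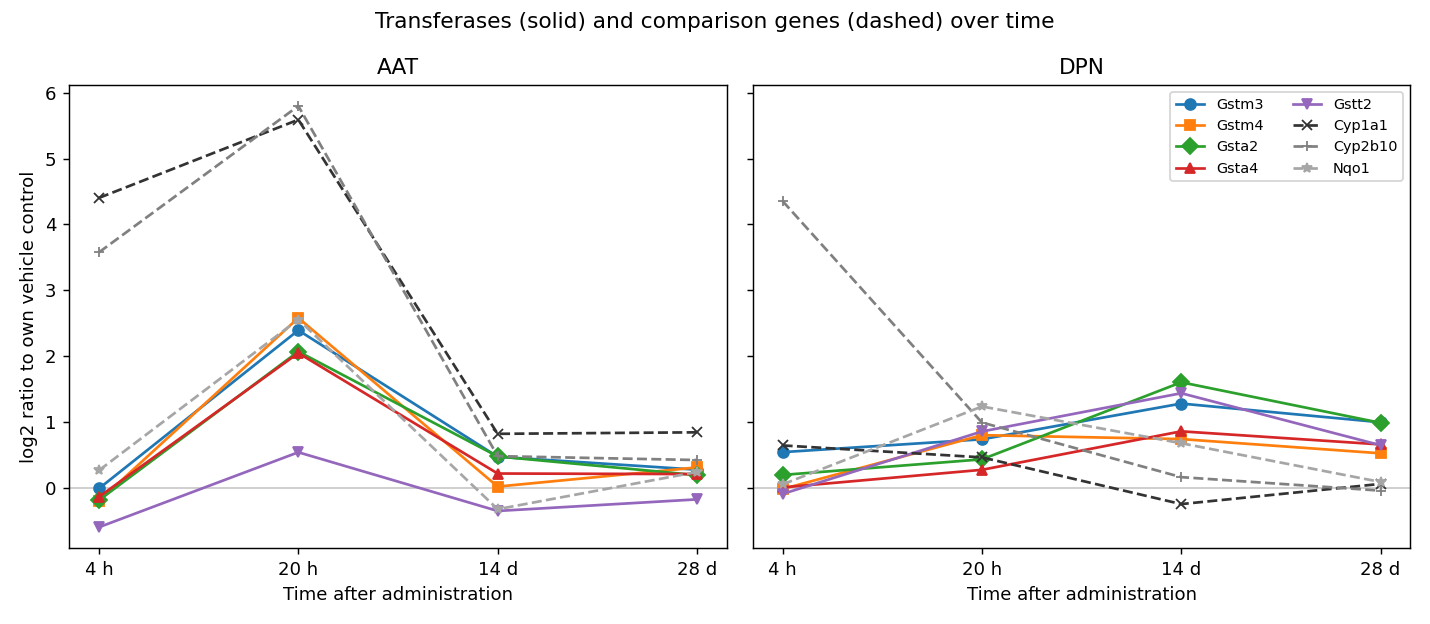
Log2 ratio to own vehicle control over the 4 times in AAT (left) and DPN (right), with 5 transferases as solid lines and Cyp1a1, Cyp2b10 and Nqo1 as dashed lines. In AAT livers Cyp1a1 and Cyp2b10 stand at 4.40 and 3.58 at 4 h, when Gstm3 and Gstm4 are near 0, and the transferases peak at 20 h, whereas in DPN livers Gsta2 and Gstt2 are highest at 14 d.

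Among other glutathione S-transferases, 12 of 19 listed genes were measured and none passed in these comparisons. Gstm2, the neighbour between Gstm3 and Gstm1, had log2 ratios in AAT of 0.07 at 4 h and 1.77 at 20 h, and Gstt3 of -0.16 and 1.81. Gstm5 and Gstm7, at the other end of the mu class row, were at -0.24 and 0.16 at 20 h. Of 15 genes of glutathione synthesis and recycling, 10 were above control in AAT at 20 h with a median of 0.53. At least 2-fold higher were 3 of them, beside 2.1% of all probe sets in that array. The 3 were Gclc, the glutathione reductase Gsr (1.48) and the thioredoxin reductase Txnrd1 (1.35). Of 9 genes of conjugate export and processing, 5 were above control. The canalicular transporter Abcc2 (1.05) and the sinusoidal transporter Abcc3 (1.23) were at least 2-fold higher, beside the same 2.1% of all probe sets.

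The other aromatic compounds had no such array. For DMBA and DBP no gene reached 2-fold in either direction at any time. In DMBA at 20 h Gstm3, Gstm4, Gsta2 and Gsta4 had log2 ratios of -0.10, 0.03, 0.21 and 0.18, and in DBP at 20 h of -0.32, -0.10, -0.50 and 0.16. On the first day and late, 0 of 10 genes passed for either compound, beside 0% (DMBA) and 0.00545% (DBP) of all probe sets on the first day and 0.0926% and 0.0109% late.

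In DPN livers the largest ratios of the family came at 14 d. The median log2 ratio of the 10 genes was 0.06 at 4 h, 0.26 at 20 h, 0.74 at 14 d and 0.52 at 28 d. At 14 d 9 of 10 genes and at 28 d all 10 were above their saline control. Gsta2, Gstt2 and Gstm3 were at least 2-fold higher at 14 d, beside 4.37% of all probe sets in that array. Ratios exceeded the largest difference between saline controls in 7 genes at 14 d and in 6 at 28 d, beside 15.9% and 9.17% of all probe sets. The median log2 ratio of all probe sets at 14 d was 0.09. The 14 d ratios share the DPN control of that time, whose median before scaling was 49.9, against 76.8 in the DPN array. The part of this control in them was not tested.

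Gsta2 was at 9.72, 9.81, 10.82 and 11.08 (log2) at 4 h, 20 h, 14 d and 28 d in DPN livers, against 9.53, 9.37, 9.21 and 10.10 in their saline controls. The ratio was largest at 14 d, 3.04-fold, and the level at 28 d was above every control of the series. Gstm3 was at 10.13, 10.66, 10.95 and 10.81 in DPN livers, against 9.58, 9.92, 9.67 and 9.81 in the controls, by 1427474_s_at. Its second probe set gave larger ratios at 20 h, 14 d and 28 d, 1.57, 2.18 and 1.39. The DPN control of Gstm3 at 4 h was lower than the other 3 saline controls, which lay between 10.17 and 10.22.

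Gstt2, a theta class enzyme, was at 8.60, 9.76, 9.60 and 9.77 in DPN livers, against 8.70, 8.91, 8.16 and 9.12 in the controls. Its saline controls at 14 d were far apart, with the control of EtOH and PB at 9.49 and the other 3 between 8.09 and 8.20. Against that array the DPN level at 14 d was higher by little. Gsta4 was at 9.73 at 14 d and 10.13 at 28 d in DPN livers, against 8.87 and 9.47 in the controls. Gstm4 had ratios of -0.02, 0.80, 0.74 and 0.52, each of the last 3 above the largest difference between saline controls of its time. Gstp1 had ratios between -0.02 and 0.29.

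For DPN late, limma gave Gsta2 higher by 1.29 ± 0.39, Gstm3 by 1.14 ± 0.40, Gstt2 by 1.04 ± 0.30, Gsta4 by 0.76 ± 0.32, Gstm1 by 0.48 ± 0.18 and Gstt1 by 0.41 ± 0.16 (log2, SE). The adjusted p lay between 0.245 and 0.391. All 10 coefficients were positive with a median of 0.56, against a median of 0.05 over all probe sets, and 6 had an unadjusted p under 0.05, as had 11% of all probe sets. The values of Gstt1 and Gstt2 were 0.08 and 0.65 without the 14 d arrays, and that of Gstt1 was 0.74 without the 28 d arrays. With quantile normalization the 6 values given above lay between 0.20 (Gstt1) and 1.06 (Gsta2). With values as deposited they lay between 0.70 (Gstt1) and 1.59 (Gsta2). None of the 10 passed, beside 0.0708% of all probe sets late and 0.997% on the first day. Gstp3, a pi class gene outside the 10, was higher late by 0.82 ± 0.21 (adjusted p = 0.217 by limma), with ratios of 1.10 at 20 h and 1.07 at 14 d. At 14 d the stellate cell and fibroblast list moved in the same DPN array, with a median log2 ratio of 0.84, and a summed signal of 2494 against 1453 to 2220 in the 20 controls, over 7 of 8 listed genes. Its part in the result was not tested.

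In ENU livers at 14 d all 10 genes were above control with a median log2 ratio of 0.39, against 0.10 over all probe sets. These ratios share the ENU control at 14 d, whose median before scaling, 40.5, was the lowest after that of PB at 28 d. The part of this control in them was not tested. Gsta2 was at 10.35 in ENU and 9.17 in its control, and Gstt2 at 9.37 and 8.20, both above 2-fold, beside 3.77% of all probe sets in that array. Late, Gstt2 was higher by 0.71 ± 0.30 (adjusted p = 0.849 by limma), a value of 0.25 without the 14 d arrays and 1.17 without the 28 d arrays. In DMN livers Gsta2 was at 10.05 at 4 h, against 9.01 in the DMN control, which was the lowest of the 5 controls of that time. At 20 h Gstm4 was at 10.31 in DMN and 9.44 in its control, and Gstm3 at 11.10 and 10.49. At 14 d none of the 10 genes was above control in DMN, with ratios between -0.42 and -0.02. All 10 ratios share the DMN control at 14 d, which had the highest median of the 52 arrays before scaling, 205, the next being 106. Its part in them was not tested. Both chemicals had 0 of 10 genes called, beside 0.0654% (ENU) and 0.0218% (DMN) of all probe sets on the first day and 0.0109% and 0% late. DPN differed from the mean of ENU and DMN on the first day by 0.50 ± 0.34 at Gstm3, and 0 of 10 genes and 0% of all probe sets passed.

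The non-genotoxic chemicals gave few large ratios outside 1 array, EtOH at 20 h, which stood apart from the rest. In it the log2 ratio of 3′ to 5′ control probe sets was 3.13 for Gapdh and 3.79 for actin, against -0.51 to 0.34 and 0.15 to 1.28 in the other 51 arrays, and 8.63% of all probe sets were 2-fold higher and 6.7% 2-fold lower than control. Its saline control carried a log2 signal of Cyp2b10 of 11.48, against 8.25 in the PB array of that time and 6.19 to 7.26 in the other controls at 20 h. Ratios of EtOH and PB at 20 h are read with these values beside them, and the part of either in them was not tested. From the files it cannot be told whether the labels of the saline and PB arrays at 20 h were exchanged, so their ratios are also given with the 2 arrays exchanged, an option chosen after seeing the data.

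Gstm6 was at 7.57 in EtOH and 9.86 in its saline control at 20 h, a log2 ratio of -2.29 and the lowest of the 32 treated arrays. Elsewhere in EtOH livers its ratio lay between -0.33 and -0.08. The 2 Gsta3 probe sets went opposite ways, at -0.90 and 0.99. Gstm3 had a ratio of -0.72 by 1427474_s_at and -2.95 by 1427473_at. With the 2 arrays exchanged, Gstm3 was at -0.02 and -2.05, Gstm6 at -2.23, and Gsta3 at -0.93 and 0.91. The Gstm1 probe sets, brightest first, were at -0.55, -0.70, 0.13 and 0.05 as labelled. Exchanged, they were at -0.42, -0.44, 0.38 and 0.65. For Gsta3, Gstm1 and Gstm3 the value of this array thus differed between probe sets.

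**Figure D5:**
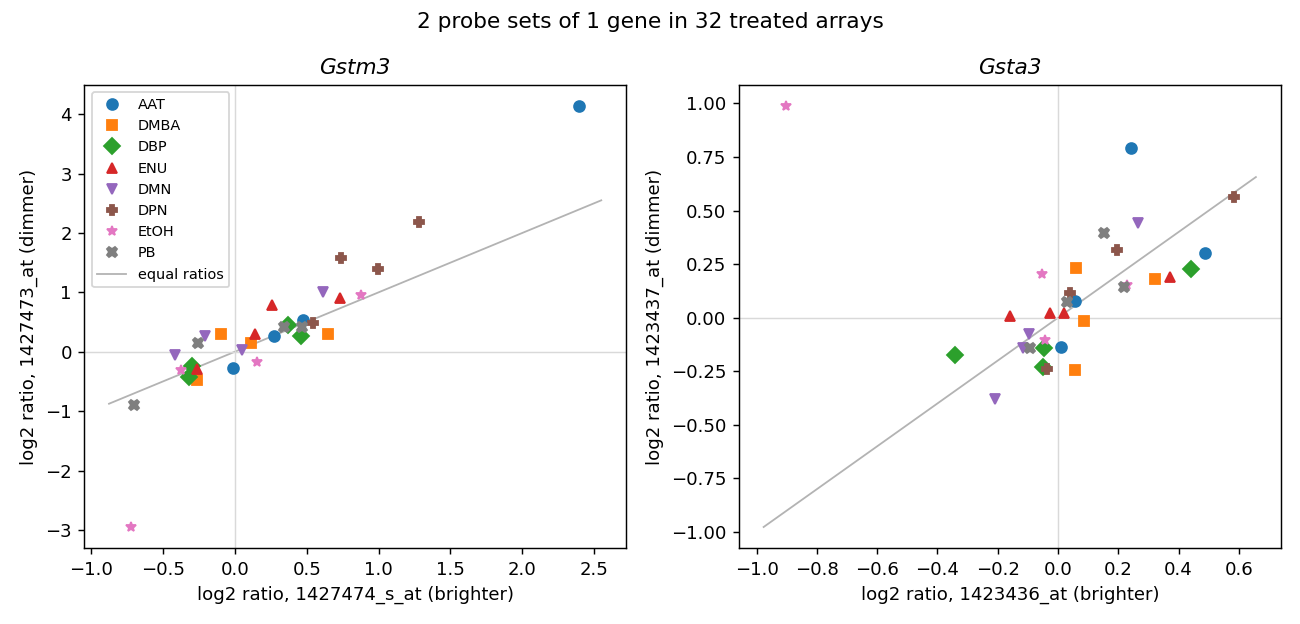
Log2 ratios by the brighter (horizontal) and dimmer (vertical) probe set of Gstm3 and Gsta3 in the 32 treated arrays, with a grey line of equal ratios. For Gsta3 the EtOH array at 20 h lies at -0.90 and 0.99, far from the line, and for Gstm3 the AAT array at 20 h lies at 2.39 and 4.14.

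For EtOH on the first day Gstm6 was lower by 1.31 ± 0.32 (log2 change -1.31, adjusted p = 0.126 by limma) and Gsta3 by 0.48 ± 0.19 (-0.48, adjusted p = 0.204). Without the EtOH and PB set at 20 h these were -0.33 and -0.05. None of 10 genes passed, beside 0.0109% of all probe sets. With the 4 h arrays left out, Gstm6 (9.25e-05) and Gsta3 (0.0292) passed as lower, but so did 13.8% of all probe sets in either direction. The difference PB minus EtOH was 1.25 ± 0.32 at Gstm6 (0.27 without the 20 h set, adjusted p = 0.146 by limma with it) with 0 of 10 called beside 0.00545% of all probe sets, and without 4 h Gstm6 and Gsta3 passed, beside 13% of all probe sets. Late, 0 of 10 passed for EtOH beside 0.0272%. At 28 d, Gstm3 was at 10.94 in EtOH and 10.06 in saline.

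PB is the reference inducer of Cyp2b10. The ratios of the 10 genes in PB livers lay between -0.06 and 0.47 at 4 h, between -0.70 and 0.16 at 20 h, between -0.31 and 0.14 at 14 d and between -0.18 and 0.66 at 28 d. With the saline and PB arrays of 20 h exchanged, those of 20 h lay between -0.16 and 0.70, with Gstm3 at 0.70 and Gstm4 and Gstt2 at 0.44. The highest was Gstp1 at 28 d, at 13.80 in PB and 13.14 in saline, which was the highest of the 32 ratios of this gene. The PB array at 28 d had the lowest median before scaling, 17.9, the next being 40.5, and its part in this ratio was not tested. None of 10 genes passed for PB, beside 0% of all probe sets on the first day and 0.0163% late. For AAT late 0% of all probe sets passed, and 0 of the 10 genes.

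None of the 10 genes passed the test of the first day against late in any of the 8 chemicals. The shares of all probe sets that passed were 0.0109% for AAT, 0.0163% for DMBA, 0.00545% for DMN, 0.0327% for DPN and 0% for DBP, ENU, EtOH and PB.

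By class, the 6 genotoxic chemicals were compared with their own controls at each time, and with the 2 non-genotoxic ones. No gene passed at any time, beside 0% of all probe sets at 4 h, 20 h, 14 d and 28 d for the genotoxic class. At 14 d all 10 coefficients were positive with a median of 0.25, and Gsta2 was higher by 0.66 ± 0.26 and Gstm3 by 0.53 ± 0.21 (adjusted p of 0.41 and 0.411 by limma). Without DPN these were 0.39 and 0.32, and without DMN Gstm3 was at 0.80. The controls of ENU, DMN and DPN at 14 d, with medians before scaling of 40.5, 205 and 49.9, enter these class values. For genotoxic minus non-genotoxic, 0 of 10 genes were called, beside 0.104% of all probe sets at 4 h, 0.114% at 20 h, 0.0599% at 14 d and 0.518% at 28 d. The smallest adjusted p was that of Gstt1 at 28 d, lower in the genotoxic class by 0.38 ± 0.10 (log2 difference -0.38, adjusted p = 0.167 by limma). It was 0.30 with values as deposited, -0.17 with quantile normalization, -0.24 with scaling by the 75th percentile and -0.06 without the control-set block, and -0.31 without PB, whose array at 28 d had the lowest median before scaling. In limma, an unadjusted p under 0.05 was reached by 4 of the 10 genes for AAT on the first day and 4 for AAT minus DMBA and DBP, by 6 for DPN and 1 for ENU late, by 2 each for EtOH on the first day, EtOH first day minus late and PB minus EtOH, by 3 and 1 for the genotoxic class at 14 d and 28 d, by 2 for genotoxic minus non-genotoxic at 28 d, and by 0 in the other comparisons. Of all probe sets the same was reached by 5.85%, 8.48%, 11% and 5.78% for the first 4 of these, by 16.6%, 8.97% and 15.1% for the 3 with EtOH, by 11.8% and 6.08% for the genotoxic class and by 13.3% for the class difference. In the other comparisons the share lay between 1.96% (DMBA on the first day) and 10.9% (DPN on the first day).

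Across all 32 treated arrays, Gstm3, Gsta2 and Gstm4 varied most, with SDs of the log2 ratio of 0.63, 0.59 and 0.55, and Gstt1 and Gstp1 varied least, at 0.21 and 0.23. Of the 320 ratios, 10 were at least 2-fold up and 1 at least 2-fold down, and the 10 higher ones were of Gstm3, Gstm4, Gsta2, Gsta4 or Gstt2. Of all probe sets, between 0.708% (AAT at 28 d) and 8.63% (EtOH at 20 h) were 2-fold up in a single array. Between 0.518% and 6.7%, in the same 2 arrays, were 2-fold down. Within the family Gstm3 and Gstm4 had the highest correlation, Pearson's r of 0.85 over 32 arrays and 0.74 without AAT at 20 h, followed by Gsta2 and Gsta4 at 0.81 and 0.71. Without AAT at 20 h other pairs came first, Gstm3 with Gstt1 at 0.78 and Gstm1 with Gstm3 at 0.77. The brightest probe sets of Gstm1 and Gstm3 are marked _x_at and _s_at and may read more than 1 mu class gene. The arrays also share controls, so these values of r are descriptions.

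Gstm3 is given here by 1427474_s_at, which may read more than 1 mu class gene. The genes outside the 10 whose ratios most resembled those of Gstm3 were Gstt3 (Pearson's r of 0.82), Gstm2 (0.81) and Txnrd1 (0.81), over 32 treated arrays and among 10745 genes. Without AAT at 20 h these were 0.74, 0.74 and 0.70. For Gsta2 they were Akr1c13 (0.80), Cryl1 (0.79) and Tbcel (0.79), and for Gstm4 Ugdh (0.80), which makes the sugar donor for glucuronidation, Txnrd1 (0.80) and Entpd5 (0.79). The value for Entpd5 was 0.54 without AAT at 20 h.

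The precision of these values was limited by how many arrays were made. Liver markers were present, with all 10 hepatocyte genes at median log2 signals between 11.30 and 13.73, and the 3 measured bile duct genes were at the lowest signal allowed (5.02) in most arrays.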

How the data were processed

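Deposited values were probe-set intensities on a linear scale, 1 per array, from the authors' processing of an Affymetrix mouse array hybridised with pooled liver RNA. Of their software and scaling nothing is given in the sources used here, and no detection calls were used. The array named in the study's methods differs from that of the annotation, which was used for gene symbols (20380 probe sets with 1 symbol, 691 with several, 1555 with none). From 22690 probe sets, 64 controls were left out. Each array was scaled to the mean of the array medians, signals below the 30th percentile of all values (32.5) were set to it, and log2 was taken. Probe sets above that floor in at least 4 of 52 arrays were kept (18349), and a gene was given by its brightest.

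Fits used limma 3.58.1 in R 4.3.3 with a mean-variance trend. Single chemicals came from 1 fit of 52 arrays with a block for each control set and time (16 residual degrees of freedom), and classes from a fit of the 13 arrays of each time (6 degrees of freedom). Adjusted p-values (Benjamini-Hochberg) were taken over all kept probe sets, with 0.05 as the threshold. As chemicals had 1 array per time, the error is the spread between times or between chemicals, not between animals. The fits were tested on simulated data. Ratios of single arrays are descriptions. The named genes were all 10 members, the 3 most alike of each of the 3 most variable, and at most 4 per listed pathway. The members and lists were chosen with earlier results of these data known. Alternatives covered scaling, floor, filter, trend, probe-set summary, control block and leaving out times, chemicals or the EtOH and PB set at 20 h. Promoter windows came from RefSeq. Treated arrays were tied to their own control through the block, and the labels give no replicate numbers.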

Additional observations from a re-analysis of the deposited data

Results flagged for a closer look

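Dixon's test was applied to the 4 saline controls and to the 6 genotoxic ratios of each gene and time, 80 groups in all, of which chance flags about 1 in 20, and 5 arrays lay apart from the rest of their group. The AAT log2 ratio at 20 h stood apart from the other genotoxic chemicals for Gstm4 (2.581, others between -0.10 and 0.87) and Gsta4 (2.048, others between -0.23 and 0.48). The DMN ratio of Gsta3 at 14 d was -0.2099, others between 0.32 and 0.58. Among saline controls, the DPN control of Gstm3 at 4 h had a log2 signal of 9.584, others between 10.17 and 10.22, and the control of EtOH and PB had a Gstt2 signal at 14 d of 9.492, others between 8.09 and 8.20. The DPN ratio of Gstm3 at 4 h (0.54) was taken to the first of these 2 control arrays. The Gstt2 ratios of EtOH and PB at 14 d (-0.12 and 0.14) were taken to the second. The part of these controls in the ratios was not tested.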

How the results depend on the processing

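The count of called genes was 0 in every family of comparisons, and moved as follows. For single chemicals on the first day it was 2 without the control-set block (Gstm3 and Gstm4 for AAT). With a time left out it moved only without the 4 h arrays, where the first day is the 20 h array alone and the error comes from the late arrays only. The AAT values concerned were those of Gstm4, Gstm3, Gsta2 and Gsta4, between 2.05 and 2.58. Those of EtOH were -2.29 (Gstm6) and -0.90 (Gsta3). That EtOH array had 3′ to 5′ log2 ratios of 3.13 for Gapdh and 3.79 for actin. For the first day minus late it again moved only without the 4 h arrays. The values were 1.83 (Gsta4) and 2.42 (Gstm4) for AAT, and -0.85 (Gstm4) and -2.12 (Gstm6) for EtOH. For differences between chemicals it was 2 with quantile normalization, 1 with scaling by the 75th percentile, 1 when a probe set had to exceed the floor in all arrays, 1 without the control-set block, and 0 to 6 with a time left out. For genotoxic minus non-genotoxic with a chemical left out, it moved only without PB, at Gstm6 at 20 h (2.26). Without PB the non-genotoxic class at 20 h is that EtOH array alone, whose Gstm6 ratio was -2.29. Late and genotoxic-class counts stayed at 0 under all alternatives run. With a time left out, the AAT first-day values ranged between -0.0101 and 2.39 for Gstm3, -0.20 and 2.58 for Gstm4, -0.19 and 2.07 for Gsta2, and -0.14 and 2.05 for Gsta4, lowest without 20 h and highest without 4 h. Gsta3 for EtOH turned to 0.0597 with the mean of its probe sets, Gstt1 at 28 d to 0.30 with values as deposited, and Gstm3 for DPN minus ENU and DMN to -0.18 without the control-set block, and the cause was not tested. Without the EtOH and PB set at 20 h the class difference of that time could not be fitted, and every other count was as before. With 1 pooled array per chemical and time, a value resting on a single array has no replicate check.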
